A study of Mus musculus with 48 samples.

Results

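The 10 genes described here belong to interleukin-6 (IL-6) and oncostatin M signaling and were measured in the tibialis anterior muscle of mice with and without pancreatic tumors. They are the receptor genes *Osmr*, *Il6ra*, *Il6st*, and *Lifr*, the kinase genes *Jak1*, *Jak2*, and *Jak3*, the transcription factor gene *Stat3*, the inhibitor gene *Socs3*, and the acute-phase target *Serpina3n*. They were taken by gene symbol, 10 of the 56748 genes in the deposited expression table, and each symbol named a single gene. All 10 were among the 15637 genes that passed the filter on low counts.

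RNA of 48 mice was sequenced, 1 library a mouse, in a design of 2 genotypes, 2 conditions, and 6 circadian times, with 2 mice in each of the 24 groups. KPC mice had received KPC cells, a murine pancreatic cancer line, by injection into the pancreas, and control mice had received PBS alone. FoxP1SkmKO mice are *Foxp1*fl/fl; Acta1-cre, so that Cre is made in skeletal muscle fibers and other cells of the muscle keep the floxed allele intact. The mice of the other genotype are called WT here; their label reads C57BL/6J, whereas the design text of the series speaks of floxed mice without Cre. All mice were male, aged 39 to 55 weeks by the labels (the study's text also gives a younger age), and were kept in constant darkness from circadian time (CT) 0. Muscles were taken every 4 h from CT18 to CT38.

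IL-6 and oncostatin M belong to a cytokine family that shares the signaling receptor chain encoded by *Il6st*. IL-6 first binds the chain encoded by *Il6ra*, oncostatin M pairs *Il6st* with the chain encoded by *Osmr* or *Lifr*, and leukemia inhibitory factor pairs *Il6st* with *Lifr*. Janus kinases bound to these chains phosphorylate STAT3, which enters the nucleus and turns on genes such as *Socs3*, whose product then blocks the kinases. In skeletal muscle, sustained activity of this pathway is known as one of the signals of wasting in tumor-bearing animals.

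Library totals on genes ranged from 14480867 to 20787784 counts, with a median of 16602091. *Foxp1*, the targeted gene, averaged 0.630 FPKM ± 0.140 (SD, n = 12) in WT control mice and 0.578 ± 0.0682 (SD, n = 12) in FoxP1SkmKO control mice, with an edgeR adjusted p of 0.459. In KPC mice it averaged 0.629 ± 0.102 (SD, n = 12) in WT and 0.544 ± 0.0744 (SD, n = 12) in FoxP1SkmKO mice, a log2 fold change of -0.20 ± 0.07 (SE; edgeR unadjusted p = 0.00766, adjusted p = 0.246). The gene was not called in either condition, and the genotypes are given here as labelled. Muscle fiber genes were abundant in every library (8 genes, 39900 to 54700 FPKM in sum). Of 8 macrophage markers, 0 differed between KPC and control mice of either genotype. Of 8 neutrophil markers, 3 of which passed the filter on low counts, *S100a8* (log2 fold change 2.83) and *S100a9* (2.06) were higher in WT KPC mice, with edgeR adjusted p-values of 0.0315 and 0.0269. The summed neutrophil list lay between 0.114 and 1.56 FPKM in WT control mice and between 0.882 and 3.78 in WT KPC mice, with *Ly6g*, *Retnlg*, *Ngp*, and *Camp* at a median of 0. It reached 2.89 in FoxP1SkmKO control and 21.7 in FoxP1SkmKO KPC mice. Of the fibroblast and fibro-adipogenic markers, *Col1a1* (-0.91) and *Col3a1* (-0.71) were lower and *Ly6a* (0.45) was higher in WT KPC mice, *Lum* (-0.79) was lower in FoxP1SkmKO KPC mice, and of the endothelial markers *Kdr* (-0.27) was lower in WT KPC mice. Lists for lymphocytes (8 genes, 0.156 to 1.55 FPKM in sum), adipocytes, satellite cells, Schwann cells, erythroid cells, and liver held 0 called genes in any of these comparisons, and among muscle fiber genes *Tnnt3* (-0.14) was lower in FoxP1SkmKO than in WT control mice. The levels of 3 libraries stood apart: FoxP1SkmKO KPC CT18 replicate 2 and FoxP1SkmKO control CT22 replicate 1 held 169 and 51.2 FPKM of 6 liver genes, against at most 7.3 elsewhere, and FoxP1SkmKO KPC CT30 replicate 2 held the 21.7 FPKM of neutrophil genes. In bulk muscle, a change in the share of a cell type and a change of RNA per cell cannot be told apart.

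Levels of the 10 genes can be compared as FPKM, which divides counts by gene length. *Jak1* was the highest at a mean of 20.6 FPKM over the 48 libraries, followed by *Il6st* (15.2), *Jak2* (11.5), *Stat3* (6.43), *Lifr* (4.90), and *Jak3* (4.15). *Socs3* (1.31), *Osmr* (0.949), *Serpina3n* (0.923), and *Il6ra* (0.698) were lowest. The transcript of the shared receptor chain was thus far more abundant than those of *Il6ra* and *Osmr*, with *Lifr* between them. *Jak1* exceeded *Il6st*, *Jak2* exceeded *Stat3*, and *Jak3* exceeded *Socs3* in 48 of 48 libraries. *Lifr* exceeded *Jak3* in only 33 of 48 libraries, and *Serpina3n* exceeded *Il6ra* in only 23 of 48, so those neighbors did not hold one order. The full range of each gene overlapped that of the next.

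The first comparison asked which of the genes differed between KPC and control mice when the 6 times were averaged. In WT mice, *Osmr*, *Jak3*, *Stat3*, and *Socs3* rose, 4 of the 10 genes, at an edgeR quasi-likelihood adjusted p under 0.05. At the same threshold 1.79% of the 15637 tested genes were called in either direction, and 1.16% were called as higher. The 10 genes were chosen with earlier results of these data known, so the shares are no test of the set. In FoxP1SkmKO mice *Jak3* and *Stat3* rose, 2 of the 10 genes, where 0.428% of all tested genes were called and 0.134% were called as higher. DESeq2, run as an alternative, called *Osmr* and *Socs3* in FoxP1SkmKO mice as well, 4 of 10 in both genotypes. The median log2 fold change of the 10 genes was 0.34 in WT mice, against 0.002 for all tested genes, and 8 of the 10 were positive. In FoxP1SkmKO mice it was 0.22, against 0.005, with 9 of 10 positive.

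**Figure D1:**
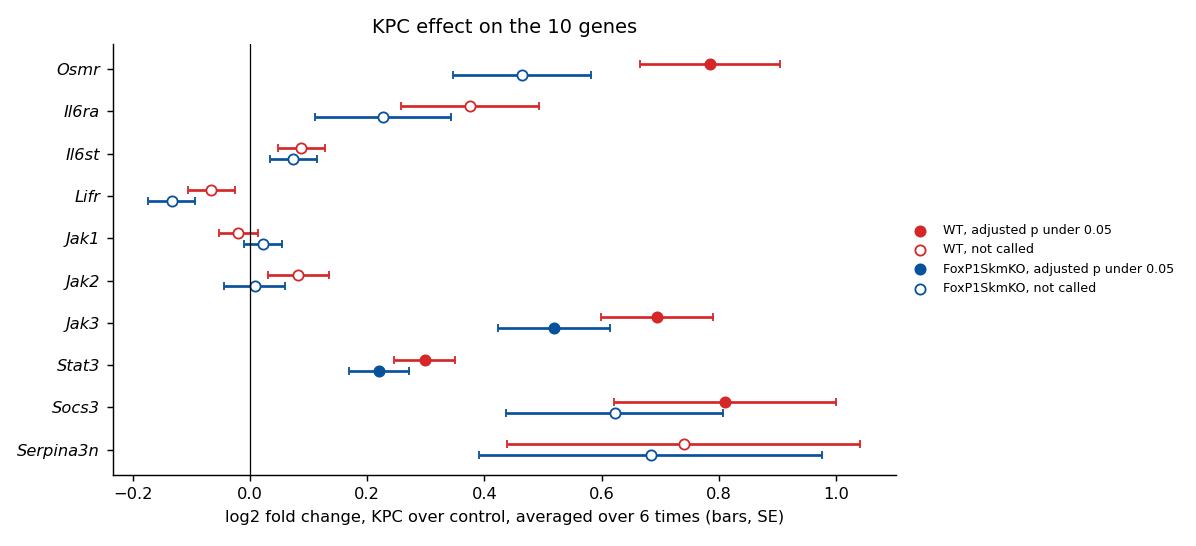
KPC effect on each of the 10 genes, as the log2 fold change of KPC over control mice averaged over the 6 circadian times (x axis), in WT mice (red) and FoxP1SkmKO mice (blue); bars are standard errors, and filled points have an edgeR adjusted p under 0.05. *Osmr*, *Jak3*, *Stat3*, and *Socs3* are filled in red and only *Jak3* and *Stat3* in blue, while *Il6st*, *Lifr*, *Jak1*, and *Jak2* lie near 0 in both genotypes.

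*Osmr* (chr15:6843058-6904450, minus strand, mm39) encodes the oncostatin M receptor chain. In WT control mice it ran from 0.5 to 0.836 FPKM with a median of 0.723, and in WT KPC mice from 0.742 to 2.06 with a median of 1.04. Of 12 WT KPC mice, 11 lay above the highest control mouse, and at 6 of 6 times both KPC mice lay above both control mice. For such counts short of full separation, here and below, the share over all tested genes was not taken. The averaged log2 fold change was 0.79 ± 0.12 (SE), a 1.72-fold rise, with an edgeR adjusted p of 0.000387. In FoxP1SkmKO mice the ranges were 0.559 to 1.12 FPKM (median 0.805) in control and 0.639 to 1.69 (median 1.12) in KPC mice. Only 6 of 12 of these KPC mice lay above the highest control mouse, and both KPC mice lay above both control mice at 2 of 6 times. A log2 fold change of 0.46 ± 0.12 (SE) missed the threshold, with an edgeR adjusted p of 0.0652.

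*Il6ra* (chr3:89771366-89820503, minus strand), the IL-6 binding chain, was the lowest of the 10 genes. WT control mice ran from 0.304 to 0.930 FPKM (median 0.558) and WT KPC mice from 0.378 to 1.33 (median 0.743). Most of that spread followed circadian time, as described below, and the groups overlapped widely. The averaged log2 fold change was 0.38 ± 0.12 (SE; edgeR adjusted p = 0.0979) in WT mice and 0.23 ± 0.12 (SE; adjusted p = 0.423) in FoxP1SkmKO mice.

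The shared chain *Il6st* (chr13:112600604-112646620, plus strand) ran from 12.3 to 17.9 FPKM in WT control mice and from 13.7 to 17.8 in WT KPC mice, with medians of 14.8 and 15.6. These ranges overlapped almost fully, and the log2 fold change was 0.09 ± 0.04 (SE; edgeR adjusted p = 0.288). *Lifr* (chr15:7120095-7226970, plus strand), which encodes the leukemia inhibitory factor receptor, was the only receptor gene with a negative value in both genotypes. Its log2 fold change was -0.07 ± 0.04 (SE; edgeR adjusted p = 0.450) in WT and -0.13 ± 0.04 (SE; adjusted p = 0.109) in FoxP1SkmKO mice. *Lifr* medians were 5.23 FPKM in WT control and 4.67 in WT KPC mice, and 4.82 and 4.68 in the FoxP1SkmKO groups. Neither gene passed the test in either genotype.

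*Jak3* (chr8:72128940-72143219, plus strand) encodes a Janus kinase best known from blood cells, where it serves receptors that carry the common gamma chain. Its 12 WT control mice lay between 2.26 and 3.69 FPKM (median 3.12) and its 12 WT KPC mice between 3.86 and 6.26 (median 4.99). The groups did not overlap, and *Jak3* was the only 1 of the 15637 tested genes of which this was true in WT mice (0.0064%). In FoxP1SkmKO mice no tested gene separated the groups (0.0%). There, control mice ran from 2.55 to 5.62 (median 3.36) and KPC mice from 3.22 to 6.51 (median 5.06), and 3 of 12 KPC mice lay above the highest control mouse. The log2 fold change was 0.69 ± 0.10 (SE; edgeR adjusted p = 0.000158) in WT and 0.52 ± 0.10 (SE; adjusted p = 0.00757) in FoxP1SkmKO mice. The FoxP1SkmKO call was lost when CT18 was left out of the average (0.44, adjusted p = 0.11) or CT38 (0.45, adjusted p = 0.0693). *Insl3* lies within the *Jak3* gene on the same strand, with a median count of 28 against 372. It was not called in WT mice (log2 fold change 0.22 ± 0.15 SE, edgeR adjusted p = 0.517). In FoxP1SkmKO mice it stood at 0.50 ± 0.15 (SE; adjusted p = 0.12), also not called but near the *Jak3* value of 0.52. The part of its reads in the *Jak3* counts was not tested.

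**Figure D2:**
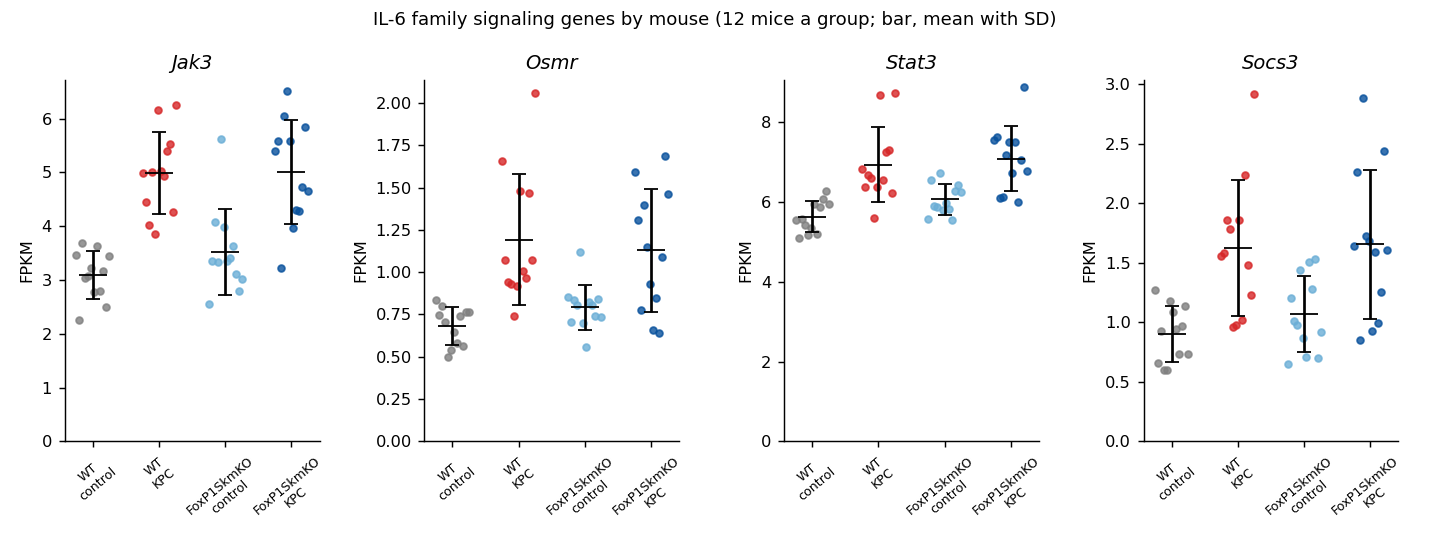
FPKM (y axis, linear from 0) of *Jak3*, *Osmr*, *Stat3*, and *Socs3* in each mouse of the 4 groups (x axis; 12 mice a group), with the mean as a bar and the SD as whiskers. WT KPC mice lie at 3.86 or more for *Jak3* and WT control mice at 3.69 or less, whereas the other panels and the FoxP1SkmKO groups show overlap.

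The 2 other kinase genes, which serve the IL-6 family receptors in most tissues, stayed near their control levels. *Jak1* (chr4:101009564-101122479, minus strand) had medians of 21.5 FPKM in WT control and 20.4 in WT KPC mice, and a log2 fold change of -0.02 ± 0.03 (SE; edgeR adjusted p = 0.834). *Jak2* (chr19:29229228-29290480, plus strand) had medians of 11.6 and 11.8 and a log2 fold change of 0.08 ± 0.05 (SE; adjusted p = 0.482). Values in FoxP1SkmKO mice were 0.02 ± 0.03 and 0.01 ± 0.05 (SE), and neither gene was called. *Raver2*, a gene of the opposite strand, overlaps *Jak1* with a median of 307 counts, and the strand setting of the counting is not given in the sources used here, so their reads may not be fully told apart.

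*Stat3* (chr11:100775924-100830366, minus strand) showed a small rise with little spread. WT control mice ran from 5.11 to 6.28 FPKM (median 5.57) and WT KPC mice from 5.6 to 8.74 (median 6.64). Of the 12 WT KPC mice, 10 lay above the highest control mouse. The log2 fold change was 0.30 ± 0.05 (SE), a 1.23-fold rise, with an edgeR adjusted p of 0.00169. FoxP1SkmKO mice ranged over 5.55 to 6.74 (median 5.94) and 6.00 to 8.88 (median 7.12), 9 of 12 KPC mice lay above the highest control mouse, and both KPC mice exceeded both control mice at 5 of 6 times. The log2 fold change there was 0.22 ± 0.05 (SE; edgeR adjusted p = 0.0435). That call was close to the threshold: it was kept in 18 of the 48 fits that each left out 1 library, with adjusted p-values from 0.0151 to 0.159, and was lost without the 3 libraries that stood apart (adjusted p = 0.13). *Stat5a* overlaps *Stat3* on the opposite strand at a median of 264 counts, with a log2 fold change of 0.05 ± 0.08 (SE) in WT mice.

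*Socs3* (chr11:117856905-117860873, minus strand), the feedback inhibitor, had an averaged fold change in WT mice close to that of *Osmr* but a wide spread, at 29 to 150 counts a library. WT control mice ran from 0.596 to 1.27 FPKM (median 0.936) and WT KPC mice from 0.958 to 2.92 (median 1.57), with 8 of 12 KPC mice above the highest control mouse. The log2 fold change was 0.81 ± 0.19 (SE), a 1.75-fold rise, with an edgeR adjusted p of 0.0227. The call was lost in 5 of the 48 fits that left out 1 library, with the highest adjusted p of 0.0815 without WT KPC CT38 replicate 2. The other 4 were WT KPC CT30 replicate 1 (adjusted p = 0.0748), WT control CT26 replicate 1 (0.0549), WT control CT38 replicate 2 (0.0521), and WT control CT30 replicate 2 (0.0504). In FoxP1SkmKO mice, medians were 0.996 in control and 1.62 in KPC mice, and 8 of 12 KPC mice lay above the highest control mouse. The log2 fold change was 0.62 ± 0.19 (SE) and did not pass the test (edgeR adjusted p = 0.111).

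The promoter windows of the 10 genes were read for short motifs, since *Socs3* and *Serpina3n* are known STAT3 targets and *Il6ra* varied with circadian time. Each window holds 250 bases before and 50 after the annotated start, 300 in all, from RefSeq sequences of build GRCm38.p6 that matched GRCm39 exactly at a single place. Both strands were searched for a STAT motif (TTCNNNGAA), a forkhead motif (GTAAACA), an E-box (CACGTG), a D-box (TTANNTAA), and an ROR element (TAGGTCA), which occur in 8.3%, 3.65%, 7.15%, 6.0%, and 2.61% of the 32851 mouse promoters of the same length. The 10 genes had 11 windows, and 2 matches were found in all. The *Socs3* window holds a STAT motif that starts 154 bases before the RefSeq start used for the window. That window lies inside the *Socs3* gene span given above, which begins upstream at 117860873 on the minus strand. The motif is thus within the gene as counted, not before it. The *Osmr* and *Lifr* windows also lie inside their gene spans. The *Il6ra* window holds an E-box, the core of the motif bound by the clock activators, 24 bases before the start. A match is a run of letters and was not tested for binding. Both windows are shown on the strand of the gene with the match in capitals, *Socs3* at chr11:117860143-117860442 and *Il6ra* at chr3:89820454-89820753 (GRCm39, minus strand).
Socs3: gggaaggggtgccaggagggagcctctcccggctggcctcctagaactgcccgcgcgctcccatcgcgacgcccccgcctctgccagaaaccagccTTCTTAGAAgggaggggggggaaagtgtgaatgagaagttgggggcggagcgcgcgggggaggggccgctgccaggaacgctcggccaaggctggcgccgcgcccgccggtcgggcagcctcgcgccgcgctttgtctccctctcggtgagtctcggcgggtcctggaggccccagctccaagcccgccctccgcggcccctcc
Il6ra: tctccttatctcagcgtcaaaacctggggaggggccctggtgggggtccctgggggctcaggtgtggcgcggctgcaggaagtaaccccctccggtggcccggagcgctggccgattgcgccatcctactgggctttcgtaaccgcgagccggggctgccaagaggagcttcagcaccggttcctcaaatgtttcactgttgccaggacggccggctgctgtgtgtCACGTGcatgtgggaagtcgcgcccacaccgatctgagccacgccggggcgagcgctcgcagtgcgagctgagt

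*Serpina3n* (chr12:104372988-104380588, plus strand) encodes a secreted protease inhibitor of the acute-phase response that is made in many tissues, and it is the most variable of the 10 genes. WT control mice ran from 0.264 to 1.13 FPKM (median 0.486) and WT KPC mice from 0.295 to 3.45 (median 0.735). The high WT KPC values were the pair at CT18 (3.45 and 3.08), and 3 of 12 mice lay above the highest control mouse. In FoxP1SkmKO mice the ranges were 0.252 to 1.57 (median 0.579) and 0.265 to 6.36 (median 0.756). The highest value of all, 6.36, came from FoxP1SkmKO KPC CT18 replicate 2, the library with the most liver RNA, and its partner held 1.29. The averaged log2 fold changes, 0.74 ± 0.30 (SE; edgeR adjusted p = 0.216) in WT and 0.68 ± 0.29 (SE; adjusted p = 0.319) in FoxP1SkmKO mice, did not pass the test. Without the 3 libraries that stood apart, a choice made after seeing the data, the FoxP1SkmKO value was 0.44 ± 0.26 (SE). *Serpina3n* has closely related paralogs beside it, among which reads may have been split, and it had 8 to 267 counts a library. In the WT KPC pair at CT18 the liver list stood at 0.0 and 7.3 FPKM. The summed macrophage list stood at 54.6 and 70.0 in that pair, against 12.6 to 44.1 in WT control mice. Over the 48 libraries, which share depth and group, the Spearman correlation of the liver list with *Serpina3n* was 0.115 and the Pearson correlation 0.772. For the macrophage list these were 0.576 and 0.458, and for the summed neutrophil list 0.595 and 0.302. The part of liver RNA, of macrophages, or of neutrophils in the level of *Serpina3n* was not tested.

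**Figure D3:**
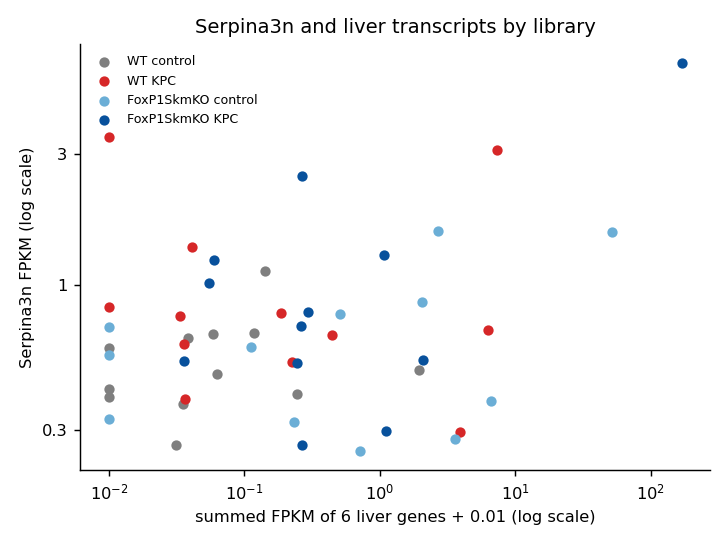
*Serpina3n* FPKM (y axis, log scale) against the summed FPKM of 6 liver genes plus 0.01 (x axis, log scale) in the 48 libraries, colored by group. The library with 169 FPKM of liver genes has the highest *Serpina3n*, 6.36, while the WT KPC library with 3.45 lies at the left edge.

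The second comparison asked whether the KPC effect differed between the genotypes. The difference, FoxP1SkmKO minus WT, was called for 0 of the 10 genes and for 0.0% of all tested genes by edgeR. In all, 1020 genes had an unadjusted p under 0.05, and none of them was among the 10. DESeq2 also called 0 of the 10. The largest was that of *Osmr*, -0.32 ± 0.17 (SE; edgeR unadjusted p = 0.0651, adjusted p = 0.787). The values were -0.18 ± 0.14 (SE) for *Jak3*, -0.08 ± 0.07 (SE) for *Stat3*, and -0.19 ± 0.27 (SE) for *Socs3*. For 9 of the 10 genes the value was negative, with a median of -0.08. The *Osmr* and *Socs3* calls in WT and their absence in FoxP1SkmKO mice are thus not shown to be a difference between the genotypes.

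The genotypes were also compared directly. In control mice 0 of the 10 genes differed, where 3.44% of all tested genes were called, and in KPC mice 0 of 10 differed, where 0.32% were called (edgeR; 1 of the 10 had an unadjusted p under 0.05 in control mice and 0 in KPC mice, against 2682 and 1688 of all 15637 tested genes, and DESeq2 called 0 in both). The exception at the unadjusted level was *Stat3* in control mice, 0.11 ± 0.05 on the log2 scale (SE; unadjusted p = 0.0482, adjusted p = 0.286). Control values of the genes that rose with KPC tumors were a little higher in FoxP1SkmKO than in WT mice, at 0.22 ± 0.12 (SE) for *Osmr*, 0.17 ± 0.10 for *Jak3*, and 0.22 ± 0.20 for *Socs3* on the log2 scale, without passing the test. In KPC mice the same genes lay at -0.10 ± 0.12, -0.01 ± 0.09, and 0.03 ± 0.18.

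The third comparison took each circadian time alone, with 2 KPC and 2 control mice a time. *Osmr*, *Jak3*, and *Stat3* were higher in KPC mice at 6 of 6 times in both genotypes, and *Socs3* and *Il6ra* at 6 of 6 times in WT and 5 of 6 in FoxP1SkmKO mice. In WT mice the log2 fold change of *Osmr* ran from 0.30 at CT22 to 1.04 at CT38, that of *Jak3* from 0.42 at CT22 to 0.89 at CT34, and that of *Stat3* from 0.18 at CT26 to 0.45 at CT30. In FoxP1SkmKO mice the values of *Osmr*, *Jak3*, *Socs3*, and *Serpina3n* were highest at CT18 and CT38, while that of *Stat3* ran from 0.04 at CT22 to 0.33 at CT18 with 0.28 at CT30. *Osmr* stood at 0.90 ± 0.29 (SE) at CT18 and 1.0 ± 0.28 at CT38, against 0.13 to 0.40 at the 4 times between. *Jak3* stood at 0.90 ± 0.24 and 0.85 ± 0.24, against 0.30 to 0.42, and *Socs3* at 1.09 ± 0.45 and 1.32 ± 0.46, against -0.32 at CT34 to 0.89 at CT22. *Serpina3n* stood at 1.84 ± 0.60 and 1.79 ± 0.69, against -0.52 to 0.55. In WT mice *Serpina3n* was likewise highest at CT18 (1.82) and CT38 (1.21), with 1.11 at CT22 and -0.02 to 0.30 at the other times. As a level and not a fold change, the summed neutrophil list of FoxP1SkmKO KPC mice stood at 1.98 to 6.30 FPKM in the 4 mice of CT18 and CT38. It stood at 0.279 to 1.58 in the others, apart from the library at 21.7. By level in these KPC mice, *Osmr*, *Socs3*, and *Serpina3n* had their highest means at CT18 and CT38. *Jak3* had its highest mean at CT26 (6.05 FPKM), where control mice stood at 5.62 and 3.99 and the neutrophil list of KPC mice at 1.58 and 0.751. The part of neutrophils in these values was not tested.

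**Figure D4:**
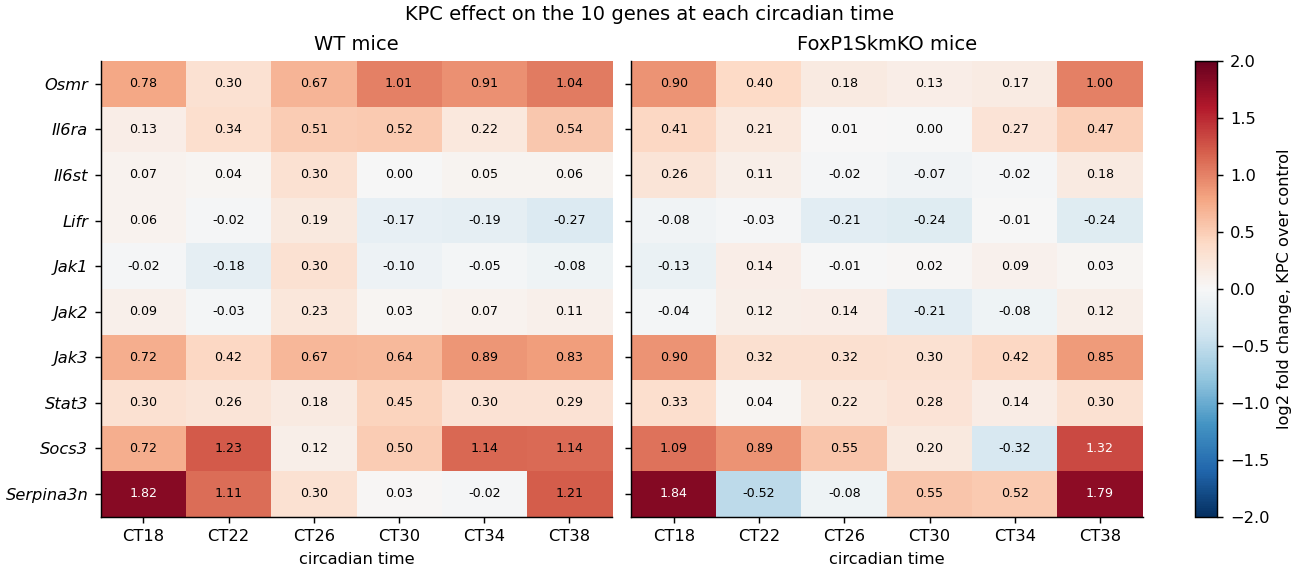
Log2 fold change of KPC over control mice (color scale and printed values) for each of the 10 genes (rows) at each circadian time (columns), in WT mice (left) and FoxP1SkmKO mice (right). *Osmr*, *Jak3*, *Socs3*, and *Serpina3n* are at or above 0.85 at CT18 and CT38 in FoxP1SkmKO mice and lower at most times between.

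That pattern was tested as a change of the KPC effect over circadian time, and 0 of the 10 genes were called in either genotype. In WT mice 0.883% of all tested genes were called and in FoxP1SkmKO mice 0.0% (edgeR; 1526 genes had an unadjusted p under 0.05 in FoxP1SkmKO mice, none of them among the 10). The edgeR adjusted p in FoxP1SkmKO mice was 0.647 for *Osmr*, 0.733 for *Jak3*, 0.666 for *Socs3*, and 0.588 for *Serpina3n*. In WT mice the lowest were those of *Jak1* (0.167) and *Lifr* (0.283), the only 2 of the 10 with an unadjusted p under 0.05, as 1912 of the 15637 tested genes had. DESeq2 called *Jak1* in WT mice and 0 of the 10 in FoxP1SkmKO mice.

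At single times, a single call was made among the 10 genes, that of *Jak1* in WT mice at CT26, where 7.17% of all tested genes were called. WT control mice stood at 15.9 and 17.2 FPKM at CT26, below the 20.7 to 23.1 of WT control mice at the other times, and WT KPC mice stood at 20.3 and 20.5. Its log2 fold change was 0.30 ± 0.08 (SE; edgeR adjusted p = 0.0186), and the value came with low control mice, not with high KPC mice. The call was lost without WT control CT26 replicate 1 (0.23, adjusted p = 0.362), WT KPC CT26 replicate 1 (0.29, adjusted p = 0.117), or WT KPC CT26 replicate 2 (0.27, adjusted p = 0.131). It was also lost on the 4 libraries of that time with DESeq2 (adjusted p = 0.0584) or edgeR (adjusted p = 0.11), and in edgeR with no filter on low counts (adjusted p = 0.11). *Il6st*, *Lifr*, *Jak2*, *Osmr*, and *Il6ra* also had their lowest WT control values at CT26, at 12.3, 3.86, 8.21, 0.5, and 0.304 FPKM. At the other times in WT mice, the shares of all tested genes called were 0.0% at CT18, CT22, and CT34, 0.0064% at CT30, and 0.0256% at CT38. FoxP1SkmKO mice had 0.0192% at CT18, 0.0384% at CT26, 0.0064% at CT38, and 0.0% at the other 3 times, with 0 of the 10 genes called by edgeR or by DESeq2 on all libraries. Of the 60 tests of the 10 genes over the 6 times, 15 had an unadjusted p under 0.05 in FoxP1SkmKO mice, 6 of them at CT18 and 6 at CT38, where 2158 and 1259 of the 15637 tested genes did. In WT mice 23 of the 60 did, spread over all 6 times, on which 746 to 3342 of all tested genes did.

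The last comparison asked which of the genes followed a 24 h rhythm. A sinusoid was fitted to FPKM in the 12 mice of each group, and rhythm was called at an unadjusted p under 0.01. The shares given beside it are over all genes whose FPKM varied in the group. They include genes below the filter on low counts, which all 10 genes passed, so they are not shares of the 15637 genes used above. In WT control mice 4 of the 10 genes were called, *Il6ra*, *Jak2*, *Lifr*, and *Osmr*, where 4.92% of 27209 genes were called. In WT KPC mice *Il6ra* and *Jak2* were called (4.22% of all), in FoxP1SkmKO control mice 0 of 10 (4.07%), and in FoxP1SkmKO KPC mice *Il6ra* (2.63%). At an adjusted p under 0.05, *Il6ra* was left in WT control mice (0.551% of all genes), *Jak2* in WT KPC mice (0.475%), and 0 of 10 in FoxP1SkmKO control (0.414%) and FoxP1SkmKO KPC mice (0.116%).

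*Il6ra* had the largest relative rhythm of the called genes. In WT control mice the pairs stood at 0.930 and 0.928 FPKM at CT18, 0.499 and 0.440 at CT22, 0.357 and 0.304 at CT26, 0.408 and 0.378 at CT30, 0.618 and 0.649 at CT34, and 0.819 and 0.767 at CT38. The level fell to its lowest at CT26 and rose again, and the 2 mice of each time lay close together. The amplitude was 0.291 FPKM ± 0.0315 (SE) around a basal level of 0.591, 49.3% of it (sinusoid F test across all genes, unadjusted p = 2.54e-05, adjusted p = 0.0131). In WT KPC mice the amplitude was 0.339 ± 0.0689 (SE) around 0.756 (unadjusted p = 0.0028), a call lost without WT KPC CT26 replicate 1 (unadjusted p = 0.0102). FoxP1SkmKO KPC mice had 0.341 ± 0.0650 (SE) around 0.791 (unadjusted p = 0.00181), which was lost without the 2 of their libraries that stood apart (unadjusted p = 0.0142). In FoxP1SkmKO control mice the amplitude was 0.175 ± 0.0673 (SE) around 0.656 (unadjusted p = 0.0809). The fitted peak lay between CT15.0 and CT15.4 in all 4 groups, outside the times sampled, which span 20 h, so that its position rests on the curve.

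**Figure D5:**
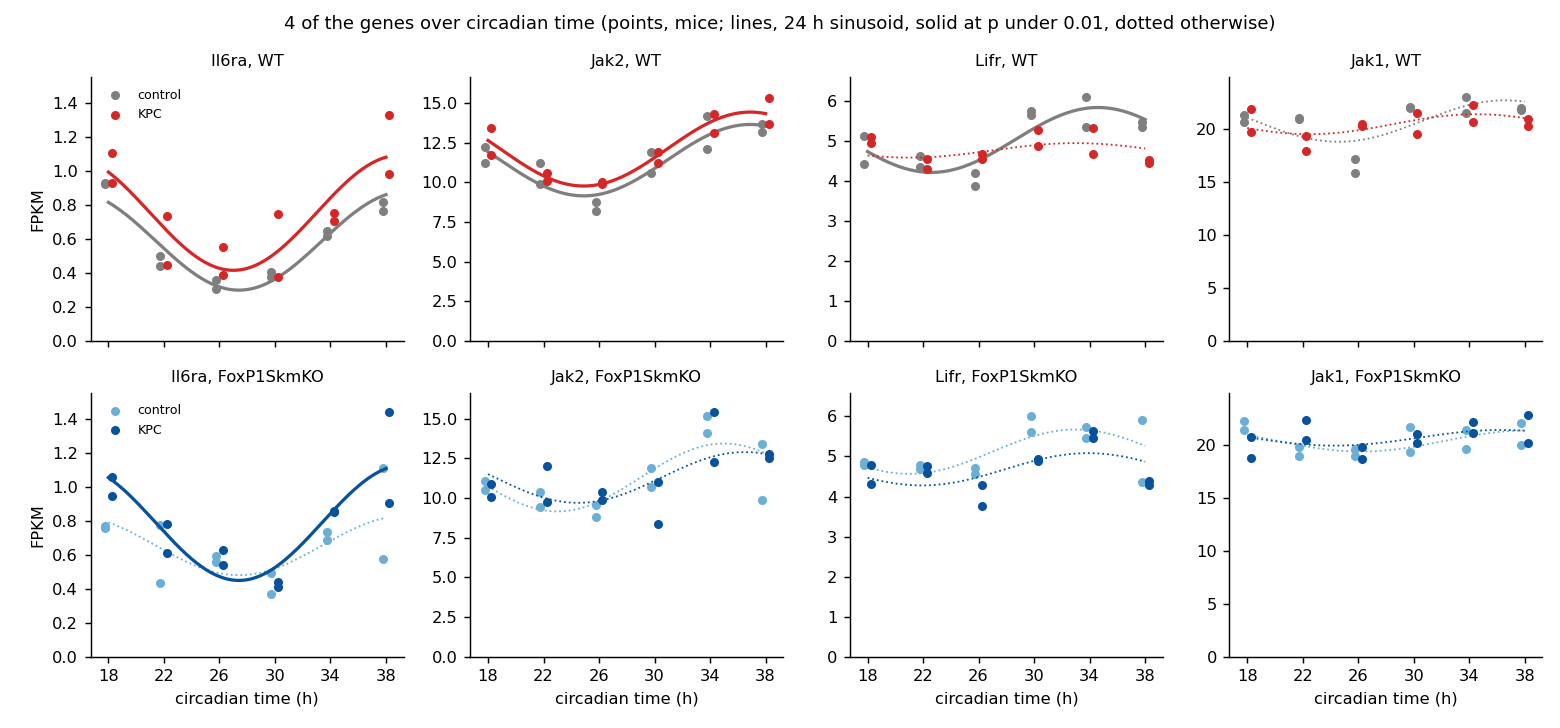
FPKM (y axis, linear from 0) of *Il6ra*, *Jak2*, *Lifr*, and *Jak1* against circadian time in hours (x axis) in WT mice (upper row) and FoxP1SkmKO mice (lower row); points are mice and lines are fitted 24 h sinusoids, solid at an unadjusted p under 0.01 and dotted otherwise. *Il6ra* falls to its lowest values at CT26 or CT30 in each group, and *Jak1* in WT control mice is low at CT26 alone.

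*Jak2* had an amplitude of 2.25 FPKM ± 0.370 (SE) around 11.4 in WT control mice (unadjusted p = 0.000646) and 2.33 ± 0.276 (SE) around 12.1 in WT KPC mice (unadjusted p = 5.29e-05, adjusted p = 0.0288), both with a fitted peak at CT12.9. The amplitudes in FoxP1SkmKO mice were 2.14 ± 0.561 (SE; unadjusted p = 0.0133) in control and 1.60 ± 0.638 (SE; unadjusted p = 0.0925) in KPC mice. *Lifr* had an amplitude of 0.810 ± 0.171 (SE) around 5.02 FPKM in WT control mice (unadjusted p = 0.00365) and 0.181 ± 0.136 (SE) around 4.76 in WT KPC mice (unadjusted p = 0.445). *Osmr* had 0.123 ± 0.0296 (SE) around 0.682 in WT control mice (unadjusted p = 0.00797) and 0.316 ± 0.140 (SE) around 1.19 in WT KPC mice (unadjusted p = 0.133). Without both WT control CT26 libraries, a choice made after seeing the data, *Il6ra* (unadjusted p = 0.000799) and *Lifr* (unadjusted p = 0.00353) were still called, and *Jak2* (unadjusted p = 0.0121) and *Osmr* (unadjusted p = 0.0303) were not. With 1 mouse left out at a time, *Lifr* was lost in WT control mice without CT34 replicate 1 (unadjusted p = 0.0147), and *Osmr* was kept in only 4 of 12 fits. In FoxP1SkmKO control mice *Jak2* (unadjusted p = 0.000293) and *Lifr* (0.00368) were called without CT38 replicate 2, and *Il6st* (0.00149) without CT18 replicate 1.

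A rhythm called in control and not in KPC mice is no test of a change, so the difference in rhythm was tested itself. It was called for 0 of the 10 genes and 0.0% of all genes in WT and in FoxP1SkmKO mice, while 1501 and 1590 genes had an unadjusted p under 0.05. The lowest values among the 10 were those of *Il6st* (unadjusted p = 0.00894) and *Osmr* (0.0238) in FoxP1SkmKO mice and of *Lifr* (0.0274) and *Serpina3n* (0.038) in WT mice, with adjusted p-values of 0.752 in WT and 0.757 in FoxP1SkmKO mice. For *Il6ra* the unadjusted p was 0.752 in WT and 0.232 in FoxP1SkmKO mice.

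Other genes of the pathway were read from a list of 68, of which 56 passed the filter on low counts. This list, too, was chosen with earlier results of these data known. In WT mice 8 of the 56 rose and 0 fell, where 1.16% of all tested genes were called as higher, and in FoxP1SkmKO mice 3 rose and 0 fell, where 0.134% were. The median log2 fold change of the 56 was 0.27 in WT mice, with 45 positive, and 0.06 in FoxP1SkmKO mice, with 36 positive, against 0.002 and 0.005 for all tested genes. The difference between genotypes was called for 0 of the 56.

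Ligand transcripts were scarce in the muscle itself. *Il6*, *Osm*, *Lif*, *Il11*, *Cntf*, and *Il27*, 6 of the 8 ligands listed, did not pass the filter, and the highest count in any library was 6 for *Il6*, 2 for *Osm*, and 10 for *Lif*. *Osm* was at 0 in 37 of 48 libraries and *Il6* in 21. A change in these genes was not detectable at this depth. *Ctf1*, which encodes cardiotrophin, was the 1 ligand with a sizeable level, at a median of 5.6 FPKM, and its log2 fold change was -0.05 ± 0.07 (SE) in WT mice. None of the 3 other receptor genes was called.

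Of the 6 other kinase and STAT genes tested, *Stat2*, an interferon signaling factor, rose in WT mice by 0.39 ± 0.09 (SE) on the log2 scale (edgeR adjusted p = 0.0257) and stood at 0.05 ± 0.09 in FoxP1SkmKO mice (adjusted p = 0.888). The difference between the genotypes, -0.34 ± 0.13 (SE), was not called (adjusted p = 0.764). Of 10 other inhibitors, 0 were called in either genotype. *Socs1*, the closest relative of *Socs3* in function, stood at 0.41 ± 0.28 (SE; adjusted p = 0.526) in WT mice.

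Of the 35 targets tested, 7 rose in WT KPC mice. The largest rise was that of *Bcl3*, a nuclear partner of NF-kappaB with a known part in muscle atrophy, at 1.04 ± 0.15 (SE; edgeR adjusted p = 0.000367). *Bcl3* medians were 0.524 FPKM in WT control and 1.2 in WT KPC mice. *Cebpd*, a transcription factor of the acute-phase response, rose by 0.70 ± 0.11 (SE), and *Il4ra*, the interleukin-4 receptor chain, by 0.71 ± 0.11 (SE), each with an adjusted p of 0.000387. *Il1r1* (0.51), *Arid5a* (0.46), *Ifitm3* (0.40), and *Tgm2* (0.29) also rose. *Bcl3* (0.70 ± 0.15 SE, adjusted p = 0.0239), *Cebpd* (0.51 ± 0.10 SE, adjusted p = 0.0177), and *Il4ra* (0.53 ± 0.11 SE, adjusted p = 0.0177) were the 3 that rose in FoxP1SkmKO KPC mice. Of the same list, *Fos* (1.21, adjusted p = 0.00128) and *Pim1* (0.49, adjusted p = 0.00128) were higher in FoxP1SkmKO than in WT control mice, and *Pim1* (0.47, adjusted p = 0.00574) in KPC mice. The hepatic acute-phase genes *Saa1*, *Saa2*, *Fga*, *Fgb*, and *Fgg* were at a median of 0 FPKM, and *C3* was not called.

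Rhythm among these 68 genes was called for 8 of 66 fitted in WT control mice, 7 of 68 in WT KPC, 7 of 68 in FoxP1SkmKO control, and 5 of 67 in FoxP1SkmKO KPC mice, against 4.92%, 4.22%, 4.07%, and 2.63% of all genes fitted in these groups. *Nfil3*, a clock output factor, was called in all 4 groups, with an amplitude of 8.90 FPKM around 14.9 in WT control mice (unadjusted p = 2.49e-06). *Cntfr*, the receptor of ciliary neurotrophic factor, was called in 3 of them, with an amplitude of 4.93 around 10.3 in WT control mice (unadjusted p = 1.59e-05).

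The genes that rose with KPC tumors also varied together between mice. Over the 48 libraries, the Pearson correlation of log2 CPM was 0.763 between *Osmr* and *Stat3*, 0.740 between *Jak3* and *Socs3*, 0.735 between *Osmr* and *Socs3*, and 0.711 between *Jak3* and *Stat3*. The mice share the groups that moved these genes, so the differences between the 2 mice of a group were also correlated over the 24 groups. These gave 0.585, 0.601, 0.554, and 0.431. The 45 pairs among the 10 genes had a median correlation of 0.353, from -0.355 to 0.763, and these values are descriptions, since the libraries also share depth and cell makeup.

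The genes closest to each by the same measure were named by rank. *Jak3* was closest to *Csf2rb* (0.838), *Fam110d* (0.834), and *Csf2rb2* (0.817), and *Socs3* to *Csf2rb2* (0.790), *Sbno2* (0.785), and *Jak3* (0.740). *Csf2rb* and *Csf2rb2* encode near-identical shared chains of the receptors for granulocyte-macrophage colony-stimulating factor and interleukin-3, so reads between them may have been split. *Osmr* was closest to *Entpd1* (0.825) and *Actn1* (0.823), *Stat3* to *Actn1* (0.803) and *Tgm2* (0.771), and *Serpina3n* to the complement genes *C4b* (0.826) and *C3* (0.745). *Il6ra* was closest to *Atoh8* (0.849), *Il6st* to *Kat2b* (0.805), *Lifr* to *Zfp383* (0.772), *Jak1* to *Clic5* (0.816), and *Jak2* to *Mylk4* (0.834).

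Neutrophil transcripts moved with several of the genes over all libraries. The libraries share the groups, with both the list and the genes higher in WT KPC mice, and no correlation within groups was taken. The Spearman correlation with the summed neutrophil list over the 48 libraries was 0.709 for *Jak3*, 0.584 for *Socs3*, 0.581 for *Osmr*, and 0.544 for *Stat3*, and the Pearson correlation was 0.264, 0.304, 0.188, and 0.372. With the summed macrophage list the Spearman values were 0.233, 0.179, 0.188, and 0.0484, and with the endothelial list they were 0.0038, -0.0522, -0.0455, and -0.306. The part of neutrophils in the rise of these genes was not tested. The 3 libraries that stood apart are all of FoxP1SkmKO mice. Leaving them out removed no WT mouse and so cannot test the rise in WT mice. The averaged log2 fold changes of that fit in WT mice were 0.70 for *Jak3*, 0.79 for *Osmr*, 0.30 for *Stat3*, and 0.81 for *Socs3*. In FoxP1SkmKO mice *Jak3* stood at 0.52 (edgeR adjusted p = 0.0325) and was called. *Stat3* (0.201, adjusted p = 0.13), *Osmr* (0.455, adjusted p = 0.129), and *Socs3* (0.502, adjusted p = 0.319) were not.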

How the data were processed

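Poly-A RNA of tibialis anterior muscle was sequenced from 48 mice, 2 in each of 24 groups of genotype, condition, and circadian time, and the labels and the study treat each mouse as a separate animal. The authors deposited whole-number read counts per gene, in 12 tables of 4 libraries each, the same counts divided by a size factor as a normalized signal (used only as a check on the counts), and FPKM, counts scaled by gene length and library size, for 56748 genes. The submitters' processing notes name HISAT2 2.0.5, DESeq2 1.20.0, and build mm39, whereas the study's methods name STAR and HTSeq-count, and strand settings are not given in the sources used here. The tables of the authors also hold fold changes and p-values of their own comparisons and 24 columns of group means, which were not used. Genes with fewer than 2 counts in a table were absent from it, and 28541 single counts were recovered from FPKM and gene length.

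Counts of all 48 libraries were fitted with edgeR 4.0.16 in R 4.3.3 (24 groups, TMM scaling, filterByExpr, 15637 genes, quasi-likelihood test), and KPC and genotype effects were read as contrasts of group means, averaged over the 6 times or at 1 time. P-values were adjusted by the Benjamini-Hochberg method over all genes tested, with calls at an adjusted p under 0.05. Rhythm was fitted as a sinusoid of 24 h on FPKM (F test on 9 residual degrees of freedom, called at an unadjusted p under 0.01 after the study), and the difference in rhythm as sinusoid-by-condition terms on 18. Correlations used log2 CPM with a prior count of 0.5. Promoters came from a RefSeq table and were matched to the GRCm39 genome. The procedures were tested on simulated data.

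Alternatives were DESeq2 1.42.0, limma 3.58.1 on log2(FPKM + 0.1) and log2(FPKM + 1), no filter on low counts, fits to the 4 libraries of a time, the replicate number as a block, and leaving out each library or each time. Leaving out the 3 libraries high in liver or neutrophil genes, or both WT control CT26 libraries, was chosen after seeing the data. The replicate numbers were checked for pairing: deviations of same-numbered mice correlated between groups at -0.319 to 0.255 over 276 pairs of groups, 14 of them over 0.1, and the fits therefore carry no block. Replicates differed by 5.15 to 17.4 times sampling noise, so none was a copy of another.

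The 10 genes, the pathway list, and the marker lists were chosen with earlier results of these data known. Named beside the 10 genes are pathway and marker genes past a threshold or of a stated role, and the 3 genes most correlated with each. Python 3.11.15, numpy 2.4.6, scipy 1.17.1, pandas 2.3.3, and matplotlib 3.10.9 were used.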

Additional observations from a re-analysis of the deposited data

How the results depend on the processing

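No called result reversed its direction under any alternative, while values near 0 that were not called could change sign, such as *Jak2* in FoxP1SkmKO mice (-0.03 to 0.05 on the log2 scale with 1 library left out). *Osmr*, *Jak3*, and *Stat3* were called in WT mice under all 60 alternatives and *Socs3* under 51, and the count of called genes among the 10 stayed at 3 to 6, or 3 to 5 with 1 library left out. In FoxP1SkmKO mice the count of 2 was less stable: 1 without the 3 libraries, 1 with limma on log2(FPKM + 0.1) and on log2(FPKM + 1), 4 with DESeq2, 5 with no filter on low counts, 0 without CT18 or CT38, 1 without CT26 or CT30, 4 without CT34, and 1 to 4 with 1 library left out. *Jak3* was called there under 58 of 60 alternatives, *Stat3* under 23, *Osmr* under 8, and *Socs3* under 4. Calls at single times numbered 1 in WT mice but 3 with DESeq2 on all libraries, 5 with DESeq2 and 2 with edgeR on the 4 libraries of a time, 15 with no filter, and 0 to 1 with 1 library left out. In FoxP1SkmKO mice they numbered 0 but 4 with DESeq2 and 3 with edgeR on the 4 libraries, 8 with no filter, and 0 to 1 with 1 library left out. Calls over all genes at single times moved as well. Summed over the times, they numbered 1126 in WT mice and ran from 90 to 2120 under the alternatives. In FoxP1SkmKO mice they numbered 10 and ran from 1 to 1678. The change over time was called for 0 genes but for 1 in WT mice with DESeq2 or with no filter and for 4 in FoxP1SkmKO mice with no filter. Over all genes it was called for 138 in WT mice, and for 115 to 806 under the alternatives. In FoxP1SkmKO mice it was called for 0 of all genes, and for 0 to 905 under the alternatives. The cause was not tested. Rhythm in WT control mice was called for 4 genes, 2 without both CT26 libraries, 1 by adjusted p with or without a minimum mean FPKM of 1, and 3 to 4 with 1 library left out. In WT KPC mice the count was 2, 1 by either adjusted p, and 1 to 2 with 1 library left out, where *Il6ra* was lost without WT KPC CT26 replicate 1. FoxP1SkmKO control mice had 0, and 0 to 2 with 1 library left out. FoxP1SkmKO KPC mice had 1, 0 without the libraries that stood apart or by either adjusted p, and 1 to 2 with 1 library left out. The difference between genotypes, the genotype effects, and the differences in rhythm were called for 0 of the 10 genes under every alternative run.

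Over all genes, the 280 calls in WT mice became 794 with no filter, 150 and 133 with limma, 138, 118, and 157 without CT26, CT30, and CT34, and 75 to 412 with 1 library left out. The 67 calls in FoxP1SkmKO mice became 33 without the 3 libraries, 170 with DESeq2, 24 and 20 with limma, 527 with no filter, 3, 130, 15, 107, and 21 without CT18, CT22, CT30, CT34, and CT38, and 17 to 228 with 1 library left out. The 0 genes of the difference between genotypes became 104 with no filter and 0 to 4 with 1 library left out. The 538 genotype calls in control mice became 933 with no filter and 323 and 268 without CT18 and CT38. The 50 in KPC mice became 117 with DESeq2, 470 with no filter, 28 and 27 with limma, and 14 without the 3 libraries. The replicate numbers are shared numbers only, and with a replicate block the counts among the 10 genes stayed at 4 in WT and 2 in FoxP1SkmKO mice, while calls over all genes were 271 in WT and 71 in FoxP1SkmKO mice for the KPC effect. Depth limits *Il6*, *Osm*, and *Lif*, with at most 10 counts in a library. *Serpina3n* and *Socs3* had the lowest median counts and the largest standard errors of the 10 genes, and the part of depth in the latter was not tested.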
